A study of Mus musculus with 4 samples.

Results

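The insulin and IGF signaling genes described here are Insr, Igf1r, Irs1, Irs2, Foxo1, Akt2, Pik3r1, Grb10 and Igf2r. These 9 genes were taken by symbol from the 32227 genes listed in the count matrices. All 9 had UMIs (unique molecular identifiers, 1 per captured RNA molecule) in the β cells of every library analysed.

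Insulin and the insulin-like growth factors bind the receptor tyrosine kinases encoded by Insr and Igf1r. The activated receptors phosphorylate the adaptors Irs1 and Irs2, which recruit PI3-kinase through its regulatory subunit Pik3r1 and so activate the kinase Akt2. Akt phosphorylates Foxo1, a transcription factor that then leaves the nucleus, and Foxo1 in turn activates Irs2 and Insr transcription. Grb10 is an adaptor that binds the activated receptors and dampens them, and Igf2r clears IGF2 and sorts lysosomal enzymes. In the islet the pathway is known for its part in β-cell mass and compensation, with Irs2 as the adaptor that β cells depend on.

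The cells came from dissociated mouse islets and were profiled by droplet single-cell RNA sequencing. Mutant mice were homozygous for a 12-bp insertion in an exon of Myt3 (St18), made with CRISPR-Cas9, that disrupts an upstream open reading frame, and controls carried the WT allele. The founder was outcrossed, the labels call the mice adult, and islets of several male and female mice were pooled per sample. Of 4 labelled libraries (2 mutant, 2 control), mutant 1, mutant 2 and control 2 were analysed, and control 1 was not analysed here. The labels give a normal diet and the PIPseq platform while the methods of the study give a high-fat diet and inDrop, so the diet behind these cells is not settled. The insertion does not remove the transcript, so counts do not check the genotype labels. In β cells the log2 ratio of St18 to control 2, scaled by TMM, was -0.58 for mutant 1 and -0.32 for mutant 2. Medians over the 4737 genes compared below were -0.20 and -0.22 with this scaling. A change of scaling shifts all ratios, and other scalings are not given for St18. No direction is thus read from its ratios, and the study itself reports unchanged Myt3 expression.

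Control 2 stood apart before any comparison. It held 36985253 UMIs against 8448466 in mutant 1 and 9013499 in mutant 2, its β cells had a median of 15979 UMIs against 2748 and 4499, and its batch label differs from that of the mutant libraries. After filtering, 2940, 2040 and 2283 cells remained in mutant 1, mutant 2 and control 2, with 2238, 1522 and 2018 β cells, 288, 217 and 34 α cells, 98, 78 and 38 δ cells, 50, 35 and 16 PP cells, 34, 31 and 35 endothelial cells and 15, 13 and 12 leukocytes. β, α, δ and PP cells were taken by the share of UMIs from their hormone genes, and the other classes by marker genes, none of which is among the 9 genes. In each library 8 or more of the 9 endothelial markers were detected in the endothelial cells, and all 11 leukocyte markers in the leukocytes. These lists also set those 2 classes, so this is no separate check. The endocrine lists include the hormones. All 8 α markers were detected in the α cells of each library. In mutant 1, mutant 2 and control 2, 5, 5 and 4 of the 5 δ markers were detected in δ cells, and 4, 5 and 3 of the 5 PP markers in PP cells. Detected means at least 1 UMI in the sum of a class. By this measure the β cells of each library also had all 8 α and all 11 leukocyte markers. The counts of detected markers thus do not tell the classes apart and do not check their names. Insulin UMIs were found in all classes, at a median of 2.74% to 5.25% of UMIs in cells that are not β cells, which was taken as an estimate of free RNA from β cells, since no empty droplets were analysed here. The class rules kept insulin under 10% in these cells, so they bound this estimate from above. No barcode was shared between any pair of libraries.

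Promoter sequences are shown for Irs1 and Irs2 because these paralogs carry the same pair of letter strings close to each other. The sequences run 5′ to 3′ over the 250 bases before the start of the gene (RefSeq, build GRCm38.p6). Capitals mark CACGTG, an E-box, and TGTTTTG, the core of the insulin response element that FOXO proteins are known to bind, with both strands searched. They lie on the minus strand at chr1:82291440-82291689 (Irs1) and chr8:11008930-11009179 (Irs2).
Irs1: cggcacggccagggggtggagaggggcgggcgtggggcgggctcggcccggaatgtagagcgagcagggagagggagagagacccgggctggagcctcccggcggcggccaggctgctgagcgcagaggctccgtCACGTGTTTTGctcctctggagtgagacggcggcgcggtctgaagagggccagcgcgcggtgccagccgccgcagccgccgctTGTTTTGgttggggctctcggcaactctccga
Irs2: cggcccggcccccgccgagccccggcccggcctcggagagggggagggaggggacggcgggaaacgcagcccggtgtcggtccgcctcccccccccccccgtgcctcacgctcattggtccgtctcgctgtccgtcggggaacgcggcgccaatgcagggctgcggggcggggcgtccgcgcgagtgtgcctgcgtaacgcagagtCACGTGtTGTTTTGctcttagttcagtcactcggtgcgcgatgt
In Irs1 the E-box starts 115 bases before the gene start and overlaps the TGTTTTG that starts at base 111, and a further TGTTTTG starts at base 32. In Irs2 the E-box starts at base 44 and TGTTTTG at base 37, with 1 base between them. CACGTG was in 6.02% and TGTTTTG in 5.56% of the 32851 RefSeq promoter windows of this length, and 0.295% held both. A pair with starts at most 10 bases apart was in 7 windows, or 0.0213%, and the Irs1 and Irs2 windows are among these 7. This pair was looked for after the Irs sequences had been seen. Of the 9 genes, 8 have an entry, with several starts for Akt2, Pik3r1 and Grb10. The Igf2r window held CACGTG at bases 48 and 7, and the windows of Igf1r, Foxo1, Akt2, Pik3r1 and Grb10 held neither string. A match in these letters describes the window and does not show that a factor binds there.

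The genes lie on 7 chromosomes of GRCm38 (GENCODE annotation), while the counts were made on GRCm39 and hold no positions. Insr (chromosome 8, 3122061 to 3279617, minus strand) and Igf1r (chromosome 7, 67952827 to 68233668, plus strand) are the longest, spanning 158 and 281 kb. Irs1 lies on chromosome 1 (82233101 to 82291416, minus), Irs2 on chromosome 8 (10984681 to 11008458, minus) and Foxo1 on chromosome 3 (52268336 to 52353221, plus). Akt2 lies on chromosome 7 (27591552 to 27640826, plus), Pik3r1 on chromosome 13 (101680563 to 101768217, minus) and Grb10 on chromosome 11 (11930508 to 12038683, minus). Igf2r (chromosome 17, 12682406 to 12769664, minus strand) is overlapped by the antisense RNA Airn, and Irs2 by the noncoding 9530052E02Rik on the opposite strand. Whether counting used strand is not given in the sources used here, so reads of Igf2r and Airn, and of Irs2 and 9530052E02Rik, may not have been kept apart. The β-cell sums of mutant 1, mutant 2 and control 2 held 341, 336 and 1979 UMIs of Airn and 83, 74 and 281 of 9530052E02Rik.

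The first comparison asked in which islet cells each gene is used. Levels are given in CPM, here UMIs per 1000000 UMIs left after hormone and mitochondrial genes were taken out, because hormones took 50.3% to 61.4% of β-cell UMIs and 4.20% to 5.72% of endothelial UMIs. A level is the sum over all cells of a class in a library, and its interval covers counting error only. Levels of different genes are not compared. Differences between classes and their tests are log2 differences from edgeR's quasi-likelihood test on the summed counts, scaled by the TMM method, with the 3 libraries as replicates, a term for library and Benjamini-Hochberg adjustment over all 5127 genes tested. Nothing in the labels says that the libraries are separate cultures or litters, so p-values speak for these libraries only. The term for library takes out differences between whole libraries, and p-values rest on how much class differences vary from library to library. This spread was estimated over the 18 sums of library and class, with information shared between genes. The tests thus had 54.3 degrees of freedom, more than the 3 libraries alone would give. Of the 9 genes, 7 had enough counts to be tested and Irs1 and Igf2r did not. The filter on low counts took all classes, so a gene low in β cells could pass it through a class where it is high.

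Insr, the insulin receptor, was highest in endothelial cells by a wide margin. Its endothelial level was 891 CPM in mutant 1 (95% counting interval 664 to 1172), 664 in mutant 2 (496 to 870) and 838 in control 2 (738 to 949). In β cells it was 53.9, 48.7 and 59.9 CPM, in the same order, and the classes did not overlap in any library. Insr was lower in β than in endothelial cells by a log2 difference of -4.01 ± 0.23 (SE, n = 3 libraries; adjusted p = 2.1e-22), a difference that lay between -4.03 and -3.56 under all 7 alternatives tried. The endothelial calls come from 51, 52 and 249 UMIs, and free β-cell RNA, sized by the insulin found in endothelial cells, would give 1.5 to 2.5 CPM there. With each cell thinned to 1000 UMIs, 50% (12 of 24), 36.7% (11 of 30) and 45.7% (16 of 35) of endothelial cells had an Insr UMI, against 3.21%, 2.90% and 2.53% of β cells. Hormone UMIs count toward the 1000 and take a much larger part of β-cell UMIs, which lowers the β shares beside the endothelial shares. Cells under 1000 UMIs drop out of these shares, among them 340 β cells of mutant 1 and 145 of mutant 2, and the shares without thinning were 52.9%, 58.1% and 85.7% of endothelial cells and 7.55%, 9.92% and 28.7% of β cells. Among the endocrine cells Insr did not pass the test against α (difference -0.28, interval -0.82 to 0.25), δ (-0.19, -0.86 to 0.48) or PP cells (-0.47, -1.25 to 0.32).

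Igf1r, the IGF1 receptor, had a different pattern, with β cells above α and endothelial cells in each library. In β cells it stood at 299.6 CPM in mutant 1, 275 in mutant 2 and 130 in control 2. δ cells had 219, 226 and 307 CPM, so control 2 was the lowest library in β cells and the highest in δ cells. α cells had 118, 117 and 58.3 CPM, below the β level of the same library each time. Endothelial cells had 105, 12.8 and 53.9 CPM from 6, 1 and 16 UMIs, where free β-cell RNA alone would give 14.1, 12.7 and 3.1. The β level was higher than the α level by 1.12 ± 0.28 (adjusted p = 0.0012; with DESeq2 the difference was 1.16 with adjusted p = 0.081), higher than the endothelial level by 1.84 ± 0.40 (adjusted p = 8.8e-05) and higher than the PP level by 1.14 ± 0.38 (adjusted p = 0.028). PP cells had 50.7, 83.4 and 194 CPM from 5, 7 and 14 UMIs, above the β level in control 2 only, and the PP call was lost without mutant 1 (0.58, adjusted p = 0.47), without mutant 2 (0.85, adjusted p = 0.29) and with DESeq2 (1.10, adjusted p = 0.19). β and δ cells did not pass the test (difference -0.06, interval -0.62 to 0.49), and without control 2 the difference turned to 0.51 with adjusted p = 0.041.

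Within one sum of cells, the balance of the receptors can be read without any scaling, as the share of Insr among the Insr and Igf1r UMIs. The share is compared between classes and libraries only, and its absolute size is not read. It was 89.5% (51 of 57), 98.1% (52 of 53) and 94.0% (249 of 265) in endothelial cells of mutant 1, mutant 2 and control 2. In α cells it was 38.2% (29 of 76), 35.2% (31 of 88) and 40.0% (6 of 15), with intervals that overlap between the libraries. In δ cells it was also low, at 22.6% (7 of 31), 12.5% (5 of 40) and 25.4% (16 of 63). In PP cells it was 54.5% (6 of 11), 50% (7 of 14) and 30% (6 of 20), with control 2 the lowest library. In β cells it was 15.2% (183 of 1201, exact binomial interval 13.3% to 17.4%), 15.03% (172 of 1144, 13.0% to 17.2%) and 31.6% (787 of 2493, 29.7% to 33.4%). The mutant libraries thus had nearly the same β-cell share and control 2 a higher one, outside both counting intervals. Among β cells of 3000 to 6000 UMIs only, a range that all libraries fill, the shares were 14.6% (84 of 574), 16.1% (71 of 441) and 30.6% (41 of 134), so the gap was as large at matched depth. With 1 control library, genotype, batch label and library cannot be told apart and no test was made.

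**Figure D1:**
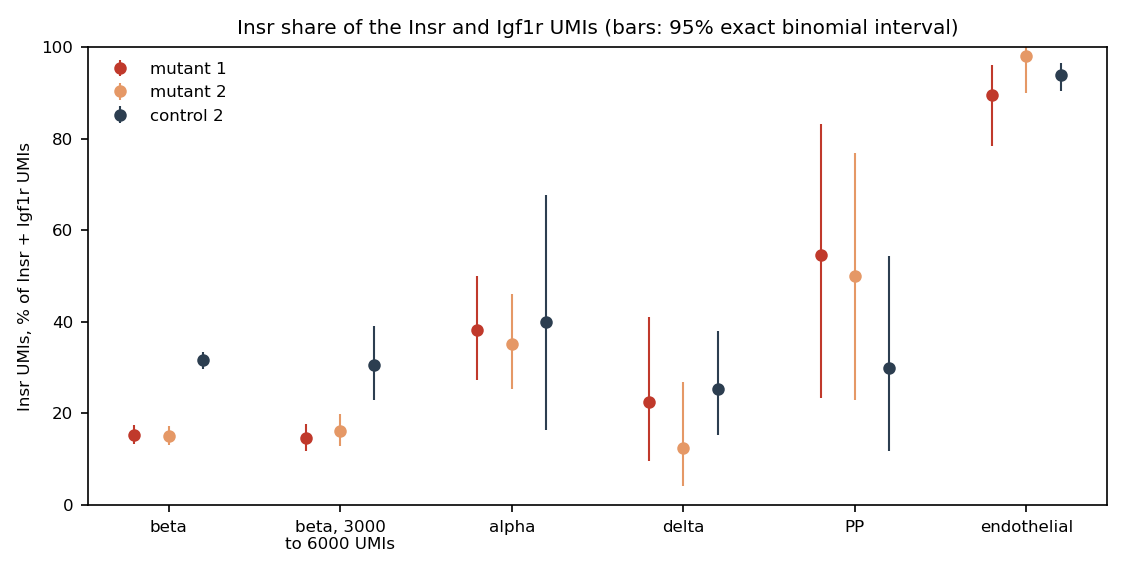
Share of Insr among the summed Insr and Igf1r UMIs (percent, y axis) by cell class (x axis) for the 3 libraries, with 95% exact binomial intervals. Endothelial points lie between 89.5% and 98.1%, and in β cells both mutant libraries lie at 15.03% to 15.2% with control 2 at 31.6%, a gap that is also seen among β cells of 3000 to 6000 UMIs.

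Irs2, the insulin receptor substrate that β cells rely on, was high in all endocrine classes and in leukocytes and at background in endothelial cells. Its level was 186, 220 and 303 CPM in β cells of mutant 1, mutant 2 and control 2. α cells had 333, 370 and 434 CPM and were above β cells in each library. PP cells had 294, 286 and 305 CPM from 29, 24 and 22 UMIs. Their counting intervals (197 to 423, 183 to 426 and 191 to 461) are far wider than this range, so its narrowness is not read. The β level was lower than the α level by a log2 difference of -0.76 ± 0.20 (adjusted p = 0.0018), with adjusted p = 0.062 without mutant 1 and 0.082 without mutant 2 at differences of -0.70 and -0.74. δ cells had 109, 161 and 339 CPM, with control 2 above both mutant libraries, and the difference of 0.33 (interval -0.13 to 0.79) was not called, while without control 2 it was (0.71, adjusted p = 0.017). In leukocytes Irs2 stood at 297, 261 and 369 CPM from 4, 6 and 18 UMIs, and did not pass the test against β cells (-0.36, interval -1.02 to 0.29). Endothelial cells held 0, 2 and 4 Irs2 UMIs, or 0, 25.5 and 13.5 CPM, where free β-cell RNA alone would give 8.8, 10.2 and 7.3. The β level was higher than the endothelial level by 4.08 ± 0.44 (adjusted p = 5.7e-12), called under all 7 alternatives, and the endothelial counts are no more than the free RNA level within their counting intervals.

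Irs1, the paralog of Irs2, had few UMIs in every class. It had 35, 47 and 124 UMIs in β cells, or 10.3, 13.3 and 9.43 CPM, and 2, 6 and 3 UMIs in α cells. Of the Irs1 and Irs2 UMIs of β cells, Irs1 made up 5.24% (interval 3.68% to 7.21%), 5.71% (4.23% to 7.52%) and 3.02% (2.52% to 3.59%). As with the receptors, the absolute size of this share is not read. Among β cells of 3000 to 6000 UMIs the share was 4.56% for mutant 1, 4.96% for mutant 2 and 3.57% for control 2. These values come from 15, 14 and 7 Irs1 UMIs, and their intervals overlap. So few UMIs cannot show whether control 2 is lower at matched depth. No Irs1 UMI was seen in endothelial cells or leukocytes, which in endothelial cells allows up to 52.4, 38.3 and 10.1 CPM (3 UMIs of each sum), so a level like that of β cells was not detectable there at this depth.

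Grb10, the receptor-binding brake, had the largest difference between α and β cells of the 7 genes tested. It stood at 136, 164 and 214 CPM in α cells of mutant 1, mutant 2 and control 2, and at 17.4, 18.4 and 31.4 in β cells, with no overlap. PP cells had 91.3, 83.4 and 180 CPM and were also above β cells in each library. β cells were lower than α cells by -3.01 ± 0.27 (adjusted p = 5.5e-14, between -3.04 and -2.86 under the 7 alternatives) and lower than PP cells by -2.37 ± 0.41 (adjusted p = 8.9e-06, called under all 7 alternatives). With 59, 65 and 413 UMIs in β cells, Grb10 could pass the filter on low counts through the classes where it is high. Igf2r, with 46, 43 and 353 β-cell UMIs, was not tested. The filter thus favoured a call of lower in β cells, and the alternatives include a fit with no filter. δ cells had 27.3, 45.2 and 13.0 CPM from 3, 7 and 2 UMIs, and the difference from β cells was not called (-0.24, interval -1.24 to 0.75). Endothelial cells had 2, 3 and 45 Grb10 UMIs, or 35.0, 38.3 and 152 CPM, and the call against β cells (-2.17 ± 0.36, adjusted p = 6.5e-07) was lost without control 2 (-0.95, adjusted p = 0.34). Grb10 and Igf2r are imprinted genes, and UMI sums do not tell the parental alleles apart.

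Foxo1, the transcription factor at the end of the pathway, was also highest in endothelial cells. It stood there at 157, 255 and 219 CPM and at 61.2, 69.9 and 92.2 in β cells of mutant 1, mutant 2 and control 2. β cells were lower by -1.62 ± 0.27 (adjusted p = 4.6e-07, called under all 7 alternatives). Against α, δ and PP cells the differences of 0.26, -0.46 and -0.24 were not called. Leukocytes held 0, 0 and 1 Foxo1 UMIs, and the β level was called higher (2.72 ± 1.05, adjusted p = 0.031), a call that was kept under 2 of 7 alternatives. Igf1r in leukocytes, with 0, 0 and 5 UMIs, was called lower than in β cells (1.92 ± 0.67, adjusted p = 0.017), and was not called without mutant 1 (1.44, adjusted p = 0.064) or without mutant 2 (1.37, adjusted p = 0.12).

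Pik3r1, the regulatory subunit of PI3-kinase, was about 2-fold higher in β cells than in the other endocrine cells. Its β level was 180, 181 and 155 CPM, the α level was 68.0, 83.9 and 97.1, and the δ level was 91.2, 58.1 and 124 in mutant 1, mutant 2 and control 2. The β level was higher in each library. The differences were 1.05 ± 0.24 against α (adjusted p = 0.00045), 1.02 ± 0.29 against δ (adjusted p = 0.0055) and 0.99 ± 0.34 against PP cells (adjusted p = 0.030). The call against α cells was lost without mutant 1 (0.87, adjusted p = 0.055), that against δ cells without mutant 1 (0.99, 0.063) or mutant 2 (0.74, 0.25), and that against PP cells without mutant 2 (0.67, 0.41) and with DESeq2 (0.92, 0.083). Against endothelial cells the difference was 0.67 ± 0.30 (adjusted p = 0.052), and it was called under 3 of 7 alternatives (range 0.61 to 1.11). Leukocytes had 149, 304 and 246 CPM from 2, 7 and 12 UMIs, above the β level in mutant 2 and control 2, and the difference was not called (-0.51, interval -1.26 to 0.24).

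Akt2, the kinase downstream of PI3-kinase, stood at 153, 170 and 101 CPM in β cells and at 69.9, 76.6 and 37.0 in endothelial cells. The endothelial values come from 4, 6 and 11 UMIs, and the counting interval in mutant 1 (19.1 to 179) takes in the β level. It was higher in β than in endothelial cells by 1.17 ± 0.34 (adjusted p = 0.0025, called under all 7 alternatives). The differences of 0.47, 0.61 and 0.83 against α, δ and PP cells were not called, and without control 2 all of them were, at 0.61, 0.77 and 1.35 with adjusted p of 0.003, 0.034 and 0.0051. Igf2r, the IGF2 clearance receptor, had 46, 43 and 353 UMIs in β cells, or 13.5, 12.2 and 26.9 CPM, and 18 UMIs over all α cells.

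**Figure D2:**
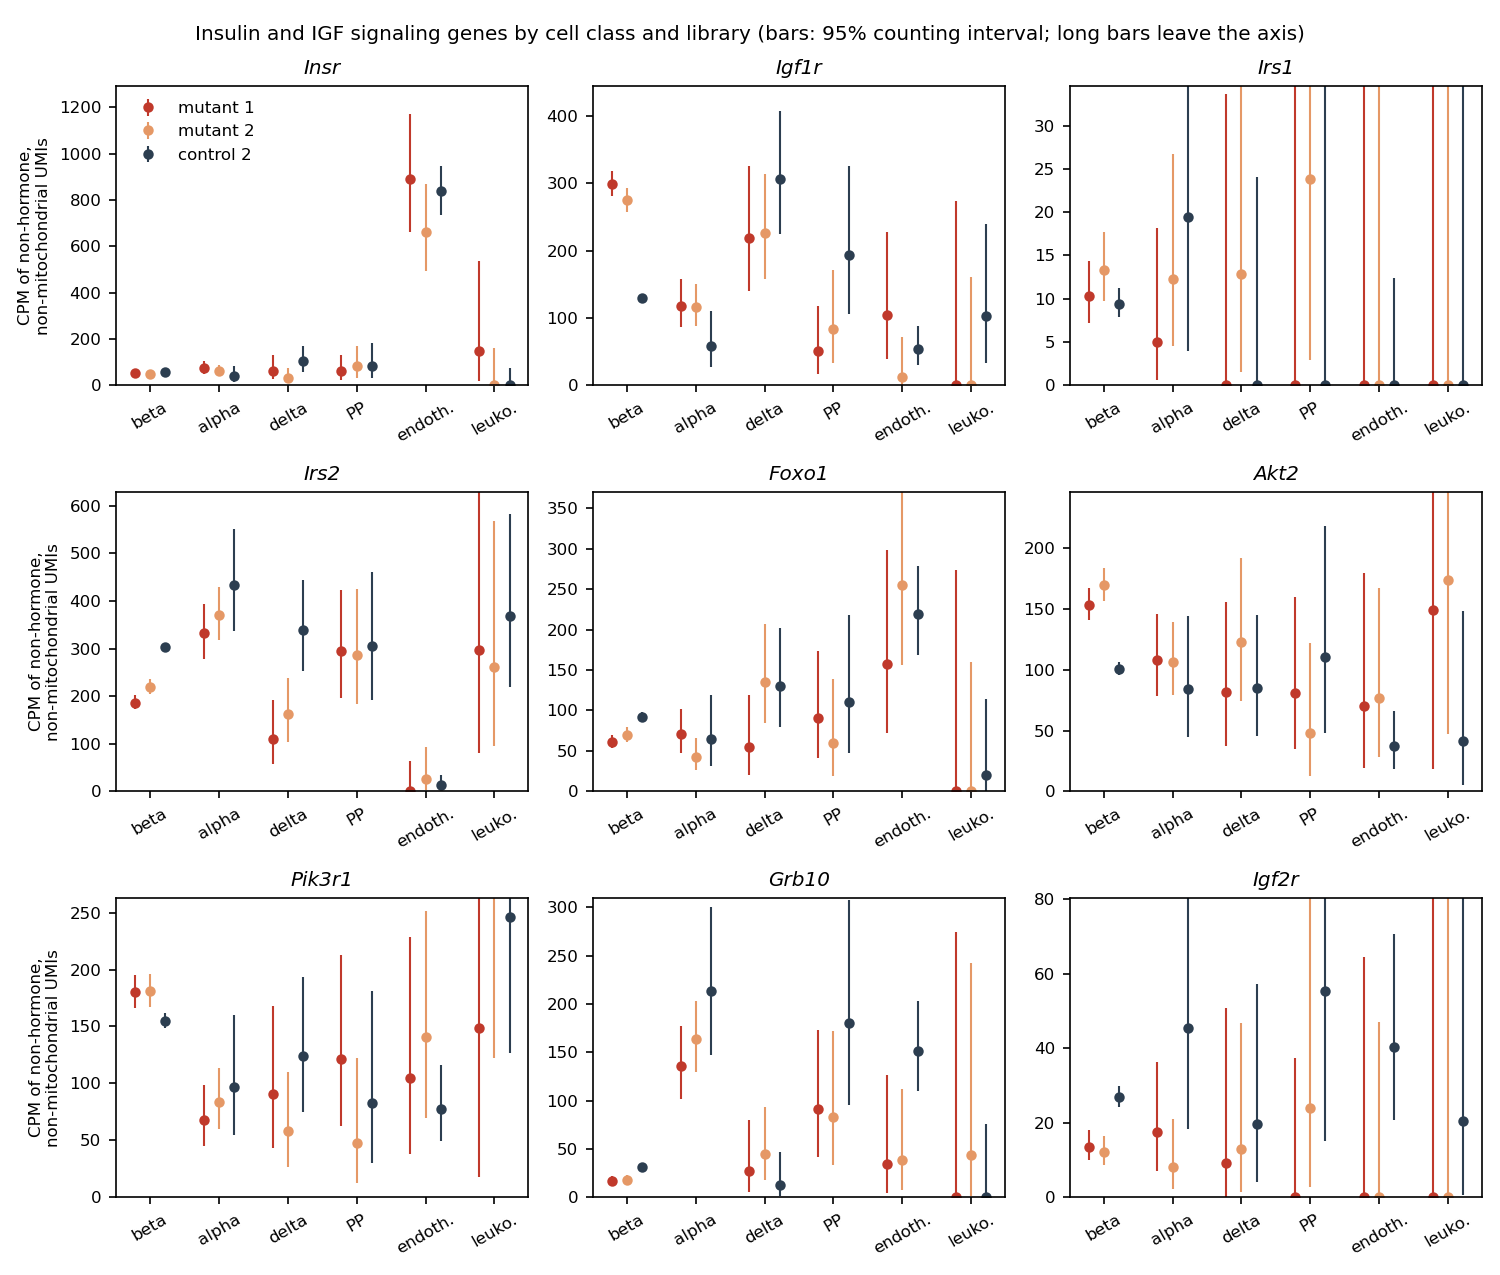
Level of each gene (CPM of non-hormone, non-mitochondrial UMIs, y axis, one scale per gene) in 6 cell classes (x axis) for mutant 1, mutant 2 and control 2, with 95% Poisson counting intervals that leave the axis where counts are few. Insr at 664 to 891 CPM in endothelial cells, Irs2 at 0 to 25.5 there and Grb10 at 136 to 214 in α cells stand out.

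Counted over the genes, 2 of 7 were called higher and 2 lower in β than in α cells, where 16.9% and 15.4% of the 5127 genes tested were called. Against δ cells 1 was higher and 0 lower (11.9% and 10.1% of all genes), and against PP cells 2 were higher and 1 lower (10.3% and 8.37%). Against endothelial cells 3 were higher and 3 lower (27.1% and 28.8%), and against leukocytes 2 were higher and 0 lower (26.0% and 16.4%). The lower genes include Grb10 against α, PP and endothelial cells, and Insr and Foxo1 against endothelial cells. Such genes could pass the filter on low counts through a class where they are high. The lower counts are thus not read as a result about the members. By edgeR, 2 of 7 genes had an unadjusted p under 0.05 against δ cells and 2 against leukocytes, and DESeq2 called 1 in each. The count against α cells was 2 without mutant 1 and that against δ cells was 0 without mutant 1, 0 without mutant 2 and 4 without control 2. The count against PP cells was 1 without mutant 2, and that against leukocytes was 1 without mutant 1, 0 without mutant 2 and 1 without control 2.

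**Figure D3:**
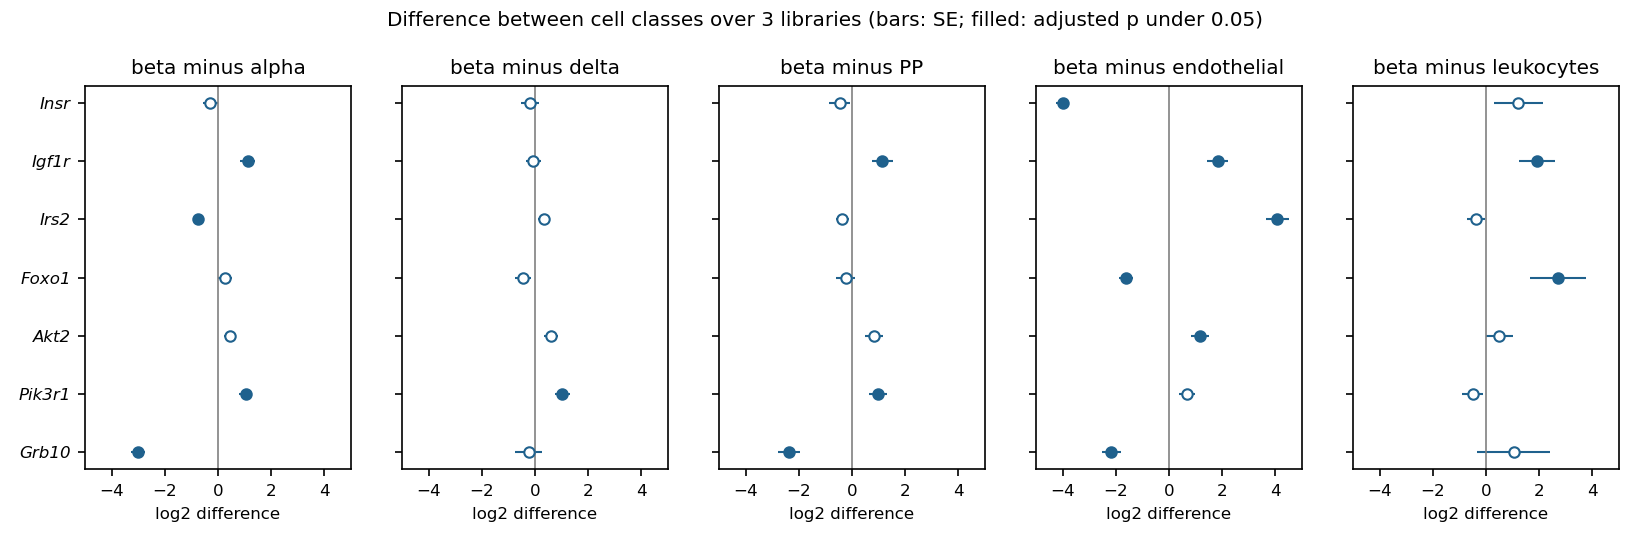
Log2 difference of β cells minus each other class (x axis) for the 7 genes that could be tested (y axis), over 3 libraries, with bars for the SE and filled points for adjusted p under 0.05 by edgeR. Insr at -4.01 and Irs2 at 4.08 against endothelial cells lie at opposite ends, and Grb10 lies at -3.01 against α cells.

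The rest of the pathway was read from a list of 65 ligands, binding proteins, adaptors, kinases, brakes and downstream genes, of which 32 could be tested. Against endothelial cells 14 of the 32 were lower in β cells and 1 was higher, beside 28.8% and 27.1% of all genes tested, with a median difference of -0.53 beside 0.01 over all genes tested. The 4 IGF ligand and binding protein genes that could be tested were all lower in β cells, and so were 4 of the 7 brakes. The filter on low counts took all classes, so a gene scarce in β cells could pass through a class where it is high. In β cells of mutant 1, mutant 2 and control 2, Igfbp4 had 12, 5 and 23 UMIs and Socs1 32, 20 and 28. The direction of such genes was largely fixed by the filter, so these counts are not read as a result. Against α cells 4 of the list were higher and 3 lower in β cells, beside 16.9% and 15.4% of all genes (median 0.04, all genes 0.06). Against δ cells 3 were higher and 3 lower, beside 11.9% and 10.1% (median 0.03, all genes 0.07), and against PP cells 1 and 2, beside 10.3% and 8.37% (0.27 and 0.10). Against leukocytes 7 were higher and 8 lower, beside 26.0% and 16.4% (0.31 and 0.65).

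As a description of likeness, the genes whose TMM-scaled log2 levels over the 18 sums of library and class correlated best with each member were taken among the 6951 genes that averaged 20 TMM-scaled CPM or more. The sums share libraries, so the correlations carry no test. Insr was most like Sipa1l2 (Pearson r = 0.97) and Dgkh (0.94), Igf1r like Gtf3c1 (0.96) and Pkdcc (0.95), Irs2 like Cers6 (0.94) and Cacna1d (0.93) and Foxo1 like Vat1 (0.98) and Myo6 (0.97). Grb10 was most like Pitpnm2 (0.94) and Spindoc (0.92), Akt2 like Elf3 (0.87) and Lrrn1 (0.85), and Pik3r1 like Abracl and Ppp2ca (both 0.77). For Irs1 and Igf2r the likest genes were Slc35f1 (0.84) and Mif (0.91). Irs1 and Igf2r themselves averaged only 4.68 and 13.0 TMM-scaled CPM, and several of their sums were at 0. Between members, Insr and Irs2 had r = -0.60, and Igf1r and Foxo1 had 0.75. These values and the likest genes take in the small leukocyte sums, where Igf1r and Foxo1 were both at 0 in mutant 1 and mutant 2. How far such zeros set the correlations was not tested. Igf1r and Foxo1 did not run together in endothelial cells, where Foxo1 was highest and Igf1r was below its β level.

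The second comparison set the β cells of the mutant libraries against those of control 2. With 1 control library there is no test, and a gene is counted only when its TMM-scaled log2 ratio passes 0.5 in the same direction in both mutant libraries. Over the 4737 genes that averaged 20 TMM-scaled CPM or more, 14.4% were higher and 32.5% lower by this rule, with medians of -0.20 and -0.22 for mutant 1 and mutant 2. The 6 members past that mean included 1 counted higher, Igf1r, and 2 counted lower, Irs2 and Foxo1. These shares depend on the scaling: lower genes were 69.2% of all counted genes with TMM, 51.0% with CPM without hormone and mitochondrial genes and 22.9% with CPM of all UMIs, which moved the medians to 0.41 and 0.40 and called 41.4% of genes higher and 12.3% lower.

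Igf1r was higher in both mutant libraries, by 0.99 and 0.82 on the log2 scale. These ratios were above the medians of all genes, -0.20 and -0.22. With CPM of all UMIs the Igf1r ratios were 1.58 and 1.41, beside medians of 0.41 and 0.40. The mean of both libraries, or the ratio of 1 library where the other was left out, was above 0.8 under each of the 13 alternatives (0.82 to 1.62). Among β cells of 3000 to 6000 UMIs (812, 608 and 285 cells), they were 1.11 and 0.93, where 25.3% of 5057 genes were higher, 17.7% were lower and the medians were 0.12 and 0.09. With each β cell thinned to 1000 UMIs they were 1.13 and 0.76. The level of Igf1r also depended on the depth of the cell within each library. From cells of 500 to 1000 UMIs to cells of 4000 to 8000 UMIs it went from 540 to 279 CPM in mutant 1 and from 687 to 263 in mutant 2, and control 2, which had no β cell under 2000 UMIs, had 148 at 4000 to 8000 UMIs (122 to 177). At 8000 to 16000 UMIs the levels were 253, 250.1 and 119 CPM, so the mutant libraries lay above control 2 in each depth range that the libraries share with 20 cells or more.

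Irs2 was lower in both mutant libraries, by -0.92 and -0.73. The ratios were -0.55 and -0.55 in β cells of 3000 to 6000 UMIs and -0.72 and -0.62 after thinning to 1000 UMIs, while with CPM of all UMIs they were -0.33 and -0.14. At 4000 to 8000 UMIs per cell its level was 186 (164 to 211), 217 (196 to 240) and 321 (283 to 363) CPM, with control 2 above both mutant libraries. Foxo1 was lower by -0.81 and -0.67. At matched depth its ratios were -0.25 and -0.43, no longer past 0.5, and after thinning they were -0.60 and -0.11. At 4000 to 8000 UMIs per cell Foxo1 stood at 60.6 (48.0 to 75.4), 69.1 (57.3 to 82.6) and 111 (88.8 to 137) CPM. At 2000 to 4000 UMIs it stood at 65.1, 60.3 and 70.4, with intervals that overlap. The direction of Irs2 and Foxo1 was the same in all 13 alternatives, and neither was counted with CPM of all UMIs, with CPM without hormone and mitochondrial genes (-0.70 and -0.46 for Irs2, -0.59 and -0.40 for Foxo1), with the mean over cells (-0.48 and -0.33, -0.37 and -0.01) or at matched depth with cells thinned to 3000 UMIs (-0.53 and -0.44, -0.43 and -0.56). Foxo1 was also not counted at matched depth with CPM without hormone and mitochondrial genes (-0.43 and -0.55).

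**Figure D4:**
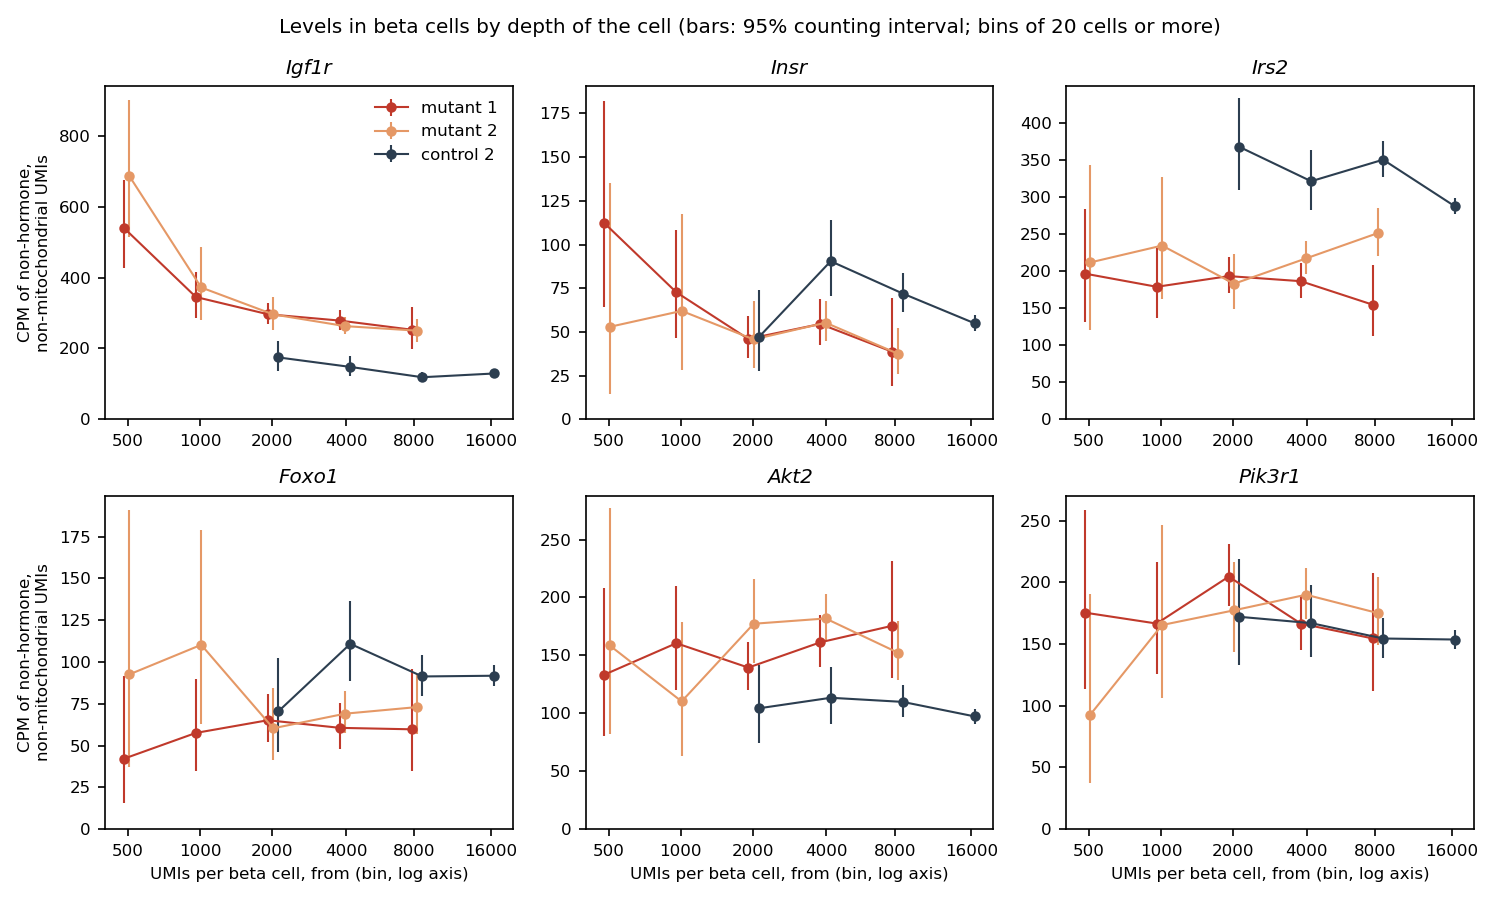
Level of 6 genes in β cells (CPM of non-hormone, non-mitochondrial UMIs, y axis) by UMIs per cell (x axis, log scale, bins named by their lower bound), with 95% Poisson counting intervals for bins of 20 cells or more. Igf1r falls from 540 and 687 CPM in the shallowest cells of the mutant libraries to 253 and 250.1 at 8000 UMIs, where control 2 is at 119, and Irs2 of control 2 lies above the mutant libraries in each shared bin.

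Akt2 stood at 0.39 and 0.48 and was not counted with TMM on all β cells. At matched depth it was 0.79 and 0.93, after thinning 0.66 and 0.73, and with CPM without hormone and mitochondrial genes 0.61 and 0.75. By the same rule 25.3% of all genes were higher and 17.7% lower at matched depth. With CPM without hormone and mitochondrial genes 21.5% of 7611 genes were higher and 22.4% lower. For thinning this share is not given here. The mean of Akt2, or the ratio of 1 library where the other was left out, was above 0 in all 13 alternatives.

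Pik3r1 differed little, with ratios of 0.00 and -0.04, 0.19 and 0.19 at matched depth and 0.59 and 0.55 with CPM of all UMIs. Insr had -0.37 and -0.56 with TMM, -0.24 and -0.26 at matched depth, 0.11 and -0.07 after thinning and 0.22 and 0.03 with CPM of all UMIs. Its sign thus depended on the scaling and depth choice. At 4000 to 8000 UMIs per cell Insr stood at 54.5 (42.7 to 68.6), 55.2 (44.7 to 67.5) and 90.5 (70.6 to 114) CPM in mutant 1, mutant 2 and control 2. At 8000 to 16000 UMIs it stood at 38.6, 37.6 and 72.0, and at 2000 to 4000 UMIs at 46.0, 45.7 and 46.9. Irs1, with a mean under 20 CPM, had -0.09 and 0.23. Grb10 and Igf2r, also under that mean, had -1.06 and -1.03 and -1.19 and -1.40, and Airn, which overlaps Igf2r, had -0.80 and -0.93. At matched depth Grb10 had -0.92 and -0.71 from 25, 25 and 20 UMIs and Igf2r had -0.66 and -0.70 from 18, 15 and 12 UMIs.

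**Figure D5:**
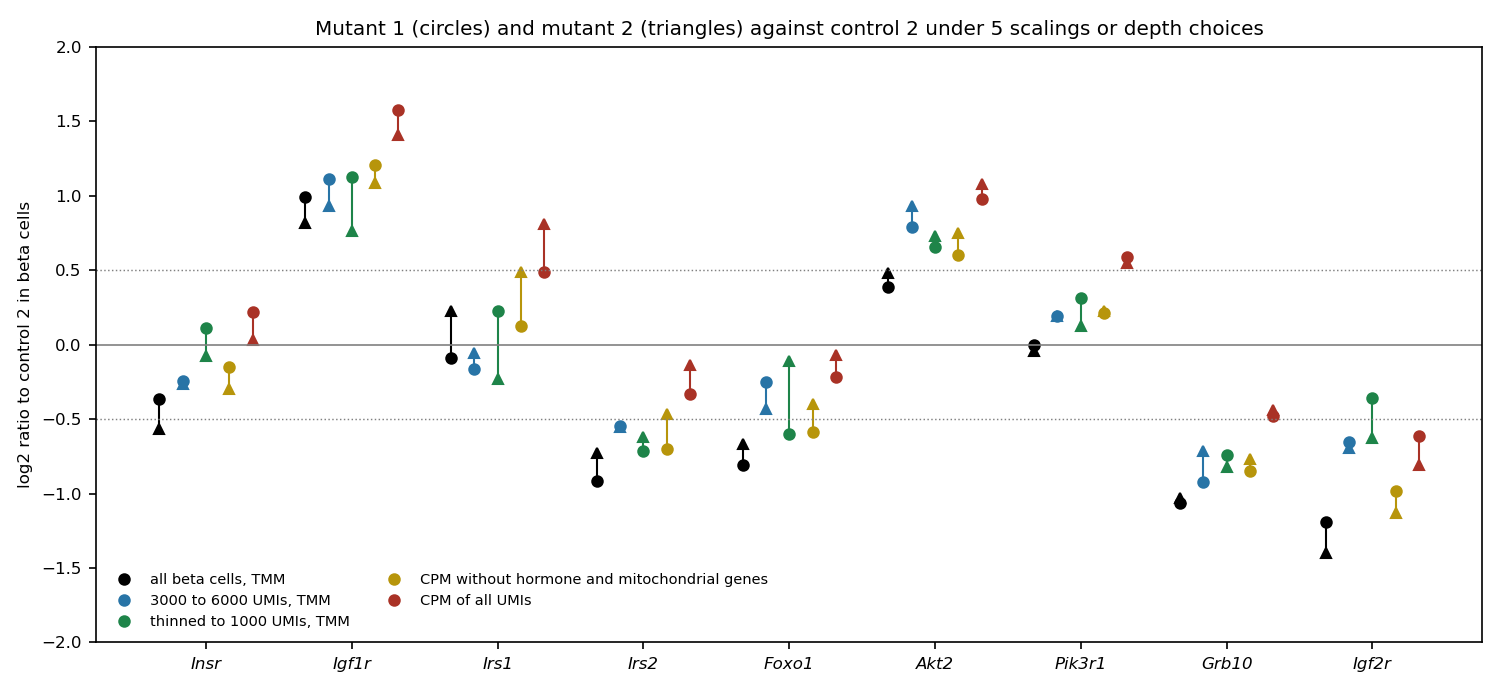
Log2 ratio of mutant 1 (circles) and mutant 2 (triangles) to control 2 in β cells (y axis) for the 9 genes (x axis) under 5 scalings or depth choices, with dotted lines at 0.5 and -0.5. Igf1r lies at 0.76 or above throughout, Irs2 and Grb10 below 0 throughout, and Insr on both sides of 0.

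Other values moved with the libraries. The median insulin share of a β cell was 39.5%, 41.9% and 54.9% of UMIs in mutant 1, mutant 2 and control 2. In β cells Malat1, a nuclear RNA, stood at 839, 1187 and 3890 CPM in the same order. Markers of other endocrine cells summed higher in β cells of the mutant libraries, in CPM of all UMIs: the 5 PP markers to 2000, 2026 and 472, the 5 δ markers to 371 or more in both against 90.1 in control 2, and the 8 α markers to 5022, 5535 and 3841. Gcg alone stood at TMM-scaled log2 ratios of 3.48 and 3.69 to control 2, and the 9 endothelial markers summed to 117, 122 and 55.5 CPM. All 8 α markers were detected there in each library, Fgb was at 0 in control 2, Ghsr in mutant 2 and Cldn5 in mutant 1. Their part in the ratios was not tested.

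Of the 65 genes of the pathway list, 28 reached the mean of 20 CPM in β cells. By the same rule 2 of them (7.14%) were higher and 11 (39.3%) lower in the mutant libraries, with medians of -0.37 and -0.28, beside 14.4% and 32.5% of all genes and their medians of -0.20 and -0.22. The lowest were Ide, which degrades insulin (-2.21 and -2.06), Rps6, a ribosomal protein phosphorylated downstream of mTOR (-1.98 and -1.77), and Rheb, the GTPase that activates mTOR (-1.31 and -1.17). The highest were Pik3r3, another regulatory subunit of PI3-kinase (1.13 and 0.71), Tsc2, which inactivates Rheb (0.70 and 0.66), and Inppl1, a lipid phosphatase (0.72 and 0.42). At matched depth 7 of 29 were higher and 5 lower, beside 25.3% and 17.7% of all genes. There Ide had -1.33 and -1.09, Rps6 -0.73 and -0.66, Rheb -0.97 and -1.14, Pik3r3 0.90 and 0.59, Tsc2 1.16 and 1.03 and Inppl1 0.69 and 0.45.

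The same ratios in the other endocrine cells rest on few cells of control 2. In the 34 α cells of that library Igf1r had 9 UMIs and Insr 6, and the mutant libraries stood at 1.17 and 1.11 for Igf1r and 1.04 and 0.81 for Insr, where 24.7% of 6165 genes were higher and 13.4% lower. Irs2 in α cells had -0.19 and -0.07. In δ cells, where 17.2% of 7139 genes were higher and 16.2% lower, Irs2 had -1.57 and -0.99 from 12, 25 and 52 UMIs, and Igf1r had -0.47 and -0.38 from 24, 35 and 47 UMIs.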

How the data were processed

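Per the labels and the methods of the study, islets were dissociated and live cells were sequenced on a NovaSeq 6000. The authors deposited UMI counts per gene and barcode, which were made before deposit (DropEst and Seurat are named in the methods, GRCm39 in the submitters' processing notes). The 9 genes, the pathway list and the marker lists were chosen with earlier results of these data known. Cells with at least 500 UMIs, 100 genes and at most 10% mitochondrial UMIs were kept. β cells had at least 15% of UMIs from Ins1 and Ins2, under 2% Gcg and under 1% Sst and Ppy, α cells at least 5% Gcg, δ cells at least 1% Sst and PP cells at least 2% Ppy. Other classes needed 0.5% of UMIs from their markers, at least 3 markers and under 10% insulin. α, δ and PP cells also needed under 10% insulin, and all classes had limits on the hormones of other classes. Endocrine cells met no marker rule of the other classes. No doublet caller was run, and the 210, 138 and 115 cells of mutant 1, mutant 2 and control 2 that met no rule or several were left out. Summed counts of classes with at least 10 cells in a library were fitted with edgeR 4.0.16 in R 4.3.3 (class and library terms, TMM, a filter on low counts), with DESeq2 1.42.0 as an alternative. Ratios between libraries used a prior count of 1. Intervals are at 95%. On simulated β against α sums of 5127 genes, 83 of 100 genes changed 2-fold and 100 of 100 changed 4-fold were recovered, and 11 of 4927 unchanged genes were called. The changed genes were drawn from those with higher mean levels, so recovery at low counts was not tested. Apart from these genes all simulated sums shared a common mean profile, with the spread taken from the fit. Error under the larger differences in composition between the real classes was thus not tested. Named genes were the 9 members, the 3 highest and 3 lowest list genes by the smaller of both ratios, and the 2 genes most like each member.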

Additional observations from a re-analysis of the deposited data

Results flagged for a closer look

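For some genes the TMM-scaled log2 ratios to control 2 had opposite signs in β cells and in another class, in both mutant libraries. These differences between classes were not tested, and with 1 control library they cannot be. Insr had -0.37 and -0.56 in β cells, signs that did not hold with CPM of all UMIs (0.22 and 0.03) or with cells thinned to 1000 UMIs (0.11 and -0.07), and 1.04 and 0.81 in α cells (from 29, 31 and 6 UMIs in mutant 1, mutant 2 and control 2). Igf1r was higher in β cells (0.99 and 0.82) and lower in δ cells (-0.47 and -0.38) and in PP cells (-1.57 and -1.04, from 5, 7 and 14 UMIs). Akt2 was above 0 in β cells (0.39 and 0.48) and below it in PP cells (-0.25 and -0.97, from 8, 4 and 8 UMIs). Pik3r1, near 0 in β cells (0.00 and -0.04, and 0.19 and 0.19 at matched depth), stood at 0.22 and 0.65 in endothelial cells, from 6, 11 and 23 UMIs.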

How the results depend on the processing

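Of the counts of called members, 38 alternative values were within 1.5 times the reported count and 11 were not. The count in β cells was 5 in place of 3 with no minimum CPM (Grb10 and Igf2r added), and 3 to 4 without a mutant library. With DESeq2 the count was 1 against PP cells and 1 against leukocytes. Leaving out a library in turn gave 2 to 5 calls against α cells, 0 to 4 against δ cells, 1 to 4 against PP cells, 5 to 6 against endothelial cells and 0 to 1 against leukocytes. For the counts of 0 by edgeR, 1 member against δ cells without mutant 1, 0 without mutant 2 and 2 against leukocytes without mutant 2 had an unadjusted p under 0.05. Signs turned only for differences that were not called as reported: with no filter on low counts Igf1r (0.15) and Insr (0.023) against δ, Foxo1 (0.17) and Irs2 (0.042) against PP, and Pik3r1 (0.053) and Irs2 (0.18) against leukocytes, and with the stricter class rule Foxo1 against PP (0.0056). Over the fits without 1 library, δ differences ran from -0.90 to 0.50 for Grb10, from -0.34 to 0.51 for Igf1r (called at 0.51, without control 2) and from -0.49 to 0.31 for Insr, and that of Grb10 against leukocytes from -0.21 to 8.33. The cause was not tested. The matched-depth ratios with CPM without hormone and mitochondrial genes and the comparison with PP cells were added after seeing the data. Thinning cells to 500 UMIs left no member with enough counts to test, and stromal cells, with 10 or more in control 2 only, could not be fitted. No paired analysis was possible because the libraries analysed share only the replicate number 2 between the groups. The α, δ and PP values of control 2 rest on 34, 38 and 16 cells.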

Other observations

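Stromal cells were too few for a test, with 7, 6 and 15 cells in mutant 1, mutant 2 and control 2. In those of control 2, Pik3r1 stood at 437 CPM of non-hormone UMIs (26 UMIs, counting interval 286 to 641), Akt2 at 168 (10 UMIs, 80.7 to 309) and Igf2r at 118 (7 UMIs, 47.4 to 243), against 155, 101 and 26.9 in β cells of the same library. Stromal Irs2 stood at 118 (7 UMIs, 47.4 to 243) beside 303 in β cells.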
